A study of Mus musculus with 12 samples.

Results

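The clustered protocadherins are cell-surface adhesion proteins made by genes that sit in 3 neighbouring clusters, alpha, beta and gamma. They were taken as every gene of the deposited count table whose symbol begins with Pcdha, Pcdhb or Pcdhg. This gave 56 of 18394 genes: 12 alpha, 22 beta and 22 gamma. No row is named Pcdha4, Pcdha6 or Pcdha7, so alpha sums, shares and ranges cover only the alpha genes that have a row. RNA was sequenced from the cerebellum of 12 mice, 6 labelled WT and 6 labelled as Crfr1 knock-outs made with deltaalpha6-Cre (cKO). Crfr1 encodes a receptor for the stress peptide corticotropin-releasing factor, and the Cre driver takes its name from a GABA-A receptor subunit, α6, that marks cerebellar granule cells. The labels give no age, sex, strain or litter, do not say whether WT mice carried a floxed allele, and list no group with the driver alone, so that effects of receptor loss, of Cre and of DNA linked to either cannot be told apart. Each library holds bulk cerebellar RNA, in which fewer cells of a type and less RNA per cell cannot be told apart either.

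A neuron is known to switch on only a few of the alternate genes of each cluster, through a choice among promoters that involves DNA methylation, the factor CTCF and cohesin. The proteins bind identical copies on other membranes, so that the chosen combination labels the cell. In the cerebellum gamma protocadherins are known for keeping the dendrites of a Purkinje cell from crossing one another. Each alpha or gamma gene contributes a long variable exon that is spliced to constant exons shared by its cluster, which encode the inner tail of the protein. Beta genes have no constant exons. The last genes of the alpha and gamma clusters (Pcdhac1, Pcdhac2, Pcdhgc3, Pcdhgc4 and Pcdhgc5), called C-type, are known to be expressed more evenly among neurons than the alternate genes.

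All 3 clusters lie on the plus strand of mouse chromosome 18 (mm10, GENCODE M21). The alpha genes span 36930184 to 37187661, the beta genes 37264938 to 37524479 and the gamma genes 37661793 to 37841873. Because constant exons belong to many genes at once, and how the deposited counts treated them is not given in the sources used here, levels were compared between genes per kilobase (kb) of exon sequence that no other gene of the same strand shares. For alpha and gamma genes this was the variable exon (2.35 to 3.25 kb), and for beta genes 2.80 to 8.70 kb among the tested ones. Similar copies limit how well reads can be assigned. Of all 50-base windows in that sequence, a median of 96.2% per tested gene occurred in no other gene's transcript, with alternate alpha genes at 81.2 to 89.8%, beta genes at 88.0 to 98.2% and all 5 C-type genes at 100%. Pcdhga4 had the lowest share, 60.5%, so by this measure its count is the most uncertain of the tested members. Antisense RNAs are annotated across the first exon of 11 members, among them Pcdhgc3, Pcdhga10, Pcdhga11 and Pcdha11, whose counts could hold antisense reads since the strand setting of the counting is not known.

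Library totals ran from 23803779 to 62104185 counts, and the 56 genes held 15637 to 40773 counts per library. Levels are given throughout in CPM, each gene's counts scaled to the size of its library after TMM normalization. The libraries carried cerebellar markers at high levels: 8 granule cell genes summed to 5465 to 5753 CPM in WT and 5207 to 5585 CPM in cKO, and 8 Purkinje cell genes to 8142 to 8465 CPM and 7546 to 8611 CPM. Across all genes, 409 of 15467 tested differed between the genotypes at an adjusted p of at most 0.05 (edgeR quasi-likelihood test, Benjamini-Hochberg), which is 2.64%. The targeted gene, listed as Crhr1, measured 91.6, 98.9 and 102 CPM (lowest, median and highest library) in WT and 88.7, 101 and 105 CPM in cKO, with a log2 fold change of 0.02 (SE 0.04, edgeR adjusted p = 0.889). Counts over the whole gene thus do not check the genotype labels, since the labels do not say which exons were deleted, and the groups are used here as labelled.

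Gamma genes were the most abundant of the 3 clusters and alpha genes the least. Summed over members and averaged over the 12 libraries, gamma genes held 65.3% of clustered protocadherin CPM, beta genes 24.8% and alpha genes 9.88%. These shares varied little between libraries, from 63.7 to 66.6%, 23.8 to 26.0% and 9.48 to 10.3%. Per kb, the median tested gene stood at 5.45 CPM in the gamma cluster, 1.58 CPM in the beta cluster and 1.06 CPM in the alpha cluster. The order of the cluster medians was the same when levels were divided by all exon sequence (3.01, 1.51 and 0.48 CPM per kb) or not divided by length (14.3, 6.16 and 2.48 CPM).

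**Figure D1:**
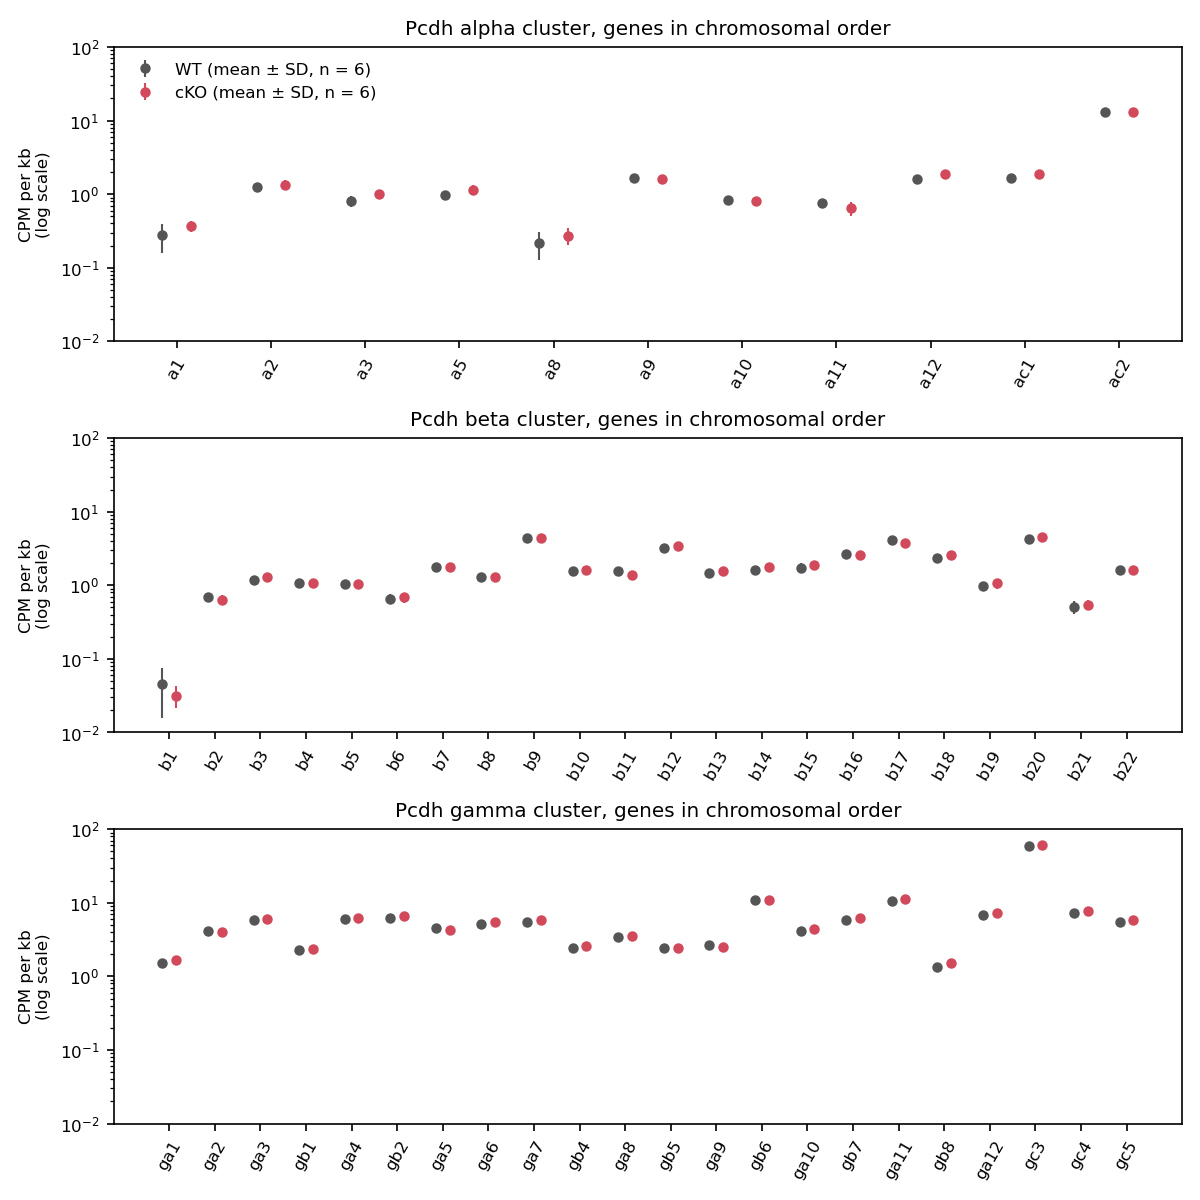
Level of each clustered protocadherin gene in CPM per kb of unshared exon sequence (log axis), in chromosomal order within the alpha, beta and gamma clusters; points are genotype means and bars the SD over 6 libraries. Pcdhgc3 at 59.8 and Pcdhac2 at 13.3 CPM per kb (means of all libraries) stand above their neighbours, and the WT and cKO points of a gene lie close together.

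The alternate alpha genes were the rarest group. The 9 of them that have a row of their own ranged from 0.24 CPM per kb (Pcdha8) to 1.74 CPM per kb (Pcdha12), a 7.13-fold range. Pcdha8 measured 0.28, 0.51 and 0.91 CPM (lowest, median and highest library) in WT and 0.45, 0.68 and 0.87 CPM in cKO, from 8 to 48 counts a library. Pcdha1 lay nearly as low, at 0.34, 0.68 and 1.07 CPM in WT and 0.72, 0.90 and 1.11 CPM in cKO. For both genes the groups overlapped, and their few counts left wide intervals on any difference. Pcdha11 came next, at 1.51, 1.92 and 2.14 CPM in WT and 1.02, 1.67 and 2.05 CPM in cKO, again with overlapping groups (log2 fold change −0.23, SE 0.15, edgeR adjusted p = 0.528). Pcdha12, next to the C-type genes, had the highest level of the alternate alpha genes, at 3.52, 3.98 and 4.55 CPM in WT and 4.21, 4.68 and 4.96 CPM in cKO. Across the 11 alpha genes with a length, level per kb rose along the chromosome, with a Spearman rho of 0.60. Over the 9 alternate genes alone it was 0.27. The alpha cluster was not alone in this: rho was 0.36 over tested beta genes, which have no constant exons, and 0.38 over gamma genes. Within the gamma cluster it was 0.37 for the A subfamily and −0.07 for the B subfamily. These are descriptions across genes that share libraries and sequence, with no test.

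Pcdhac2, the C-type gene known for the tiling of serotonergic axons, made up 60.6% of alpha counts (58.5 to 63.9% over libraries). Its level was 38.9, 40.1 and 42.0 CPM in WT and 38.8, 40.7 and 41.4 CPM in cKO, so the genotypes overlapped almost completely. Its log2 fold change (cKO against WT throughout) was 0.0038 with a 95% interval of −0.05 to 0.06. Markers of serotonergic neurons were scarce in the same libraries: 4 genes summed to 0.52 to 0.79 CPM in WT and 0.63 to 1.04 CPM in cKO, and only Tph2 was abundant enough to test. Pcdhac1, the other alpha C-type gene, measured 3.49, 4.45 and 4.72 CPM in WT and 4.04, 4.93 and 5.48 CPM in cKO. Per kb it stood at 1.78 CPM against 13.3 CPM for Pcdhac2, just above the highest alternate alpha gene.

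The beta genes, which lack the shared tail, filled a middle range with no dominant member. Per kb the 21 tested genes ran from 0.53 CPM (Pcdhb21) to 4.42 CPM (Pcdhb9), an 8.42-fold range, with Pcdhb20 at 4.41 CPM and Pcdhb17 at 3.92 CPM. Pcdhb9 measured 12.1, 13.7 and 14.3 CPM in WT and 12.8, 13.5 and 13.9 CPM in cKO. Pcdhb20 measured 14.7, 15.2 and 15.8 CPM in WT and 14.6, 16.3 and 17.2 CPM in cKO. For both genes the genotypes overlapped. Pcdhb17 had the largest share of beta counts, 11.0%, followed by Pcdhb20 at 9.41% and Pcdhb14 at 8.74%. The lowest tested levels before length scaling belonged to Pcdhb2, Pcdhb21 and Pcdhb6, with means of 1.88, 2.23 and 2.50 CPM. Pcdhb1, the first gene of the cluster, was nearly silent. It had 0 to 7 counts a library, 48 in all, and did not pass the filter on low counts.

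The gamma cluster was led by Pcdhgc3, by far the most abundant clustered protocadherin. It measured 144, 152 and 157 CPM in WT and 149, 154 and 162 CPM in cKO, with 3611 to 8960 counts a library. It held 35.0% of gamma counts (33.8 to 36.3%), and per kb its 59.8 CPM compared with 7.44 CPM for Pcdhgc4 and 5.60 CPM for Pcdhgc5, the other gamma C-type genes. Pcdhgc4, known to be needed for the survival of inhibitory neurons, measured 20.1, 21.4 and 21.7 CPM in WT and 21.2, 21.8 and 23.3 CPM in cKO. Pcdhgc5 measured 13.3, 13.9 and 15.4 CPM in WT and 13.5, 15.2 and 16.3 CPM in cKO. The 3 genes lay side by side at the end of the cluster at very unlike levels.

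Among alternate gamma genes, 12 belong to the A subfamily and 7 to the B subfamily, which are interleaved along the chromosome. Their medians were 4.83 and 2.49 CPM per kb, and their ranges overlapped, from 1.603 to 10.9 and from 1.43 to 10.8 CPM per kb. Pcdhga11, of the A subfamily, was the highest alternate gene of all clusters, with 26.9, 28.4 and 28.8 CPM in WT and 27.7, 29.9 and 30.7 CPM in cKO. Pcdhgb6, of the B subfamily, came next, with 26.2, 27.2 and 30.2 CPM in WT and 25.5, 27.2 and 30.7 CPM in cKO. The lowest were Pcdhgb8, annotated as a polymorphic pseudogene, at 3.57 CPM, Pcdhga1 at 5.21 CPM and Pcdhgb1 at 6.10 CPM. The level of the lowest gamma gene per kb, 1.43 CPM for Pcdhgb8, still lay above that of the median alpha gene.

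The row Pcdha7-g is a read-through gene that joins the alpha and gamma clusters (Gm38667 in RefSeq). It had 0 to 4 counts a library, 17 in all, and was at 0 in 4 of the 12 libraries. With Pcdhb1 it was among the 2 members that the low-count filter removed. The other 54 members were tested.

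No member of the 3 clusters differed between the genotypes at an adjusted p of at most 0.05. With edgeR the count was 0 of 54, against 2.64% of all tested genes, DESeq2 also called 0, and the authors' deposited table called 0. At an unadjusted p under 0.05, edgeR had 7 members higher in cKO (Pcdha3, Pcdha12, Pcdhb14, Pcdhb18, Pcdhga7, Pcdhga11 and Pcdhgb8) and 2 lower (Pcdhb11 and Pcdhb17). Counted in both directions these were 16.7% of the tested members. All tested genes gave 7.16% higher and 7.08% lower by the same rule. The 16.7% therefore compares with those 2 shares added, not with either alone. An unadjusted p under 0.05 was also given to 9 members in the authors' deposited table, and they were the same 9 genes. Complete separation of the WT and cKO ranges was found in 0 of 54 members, against 2.09% of all tested genes.

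**Figure D2:**
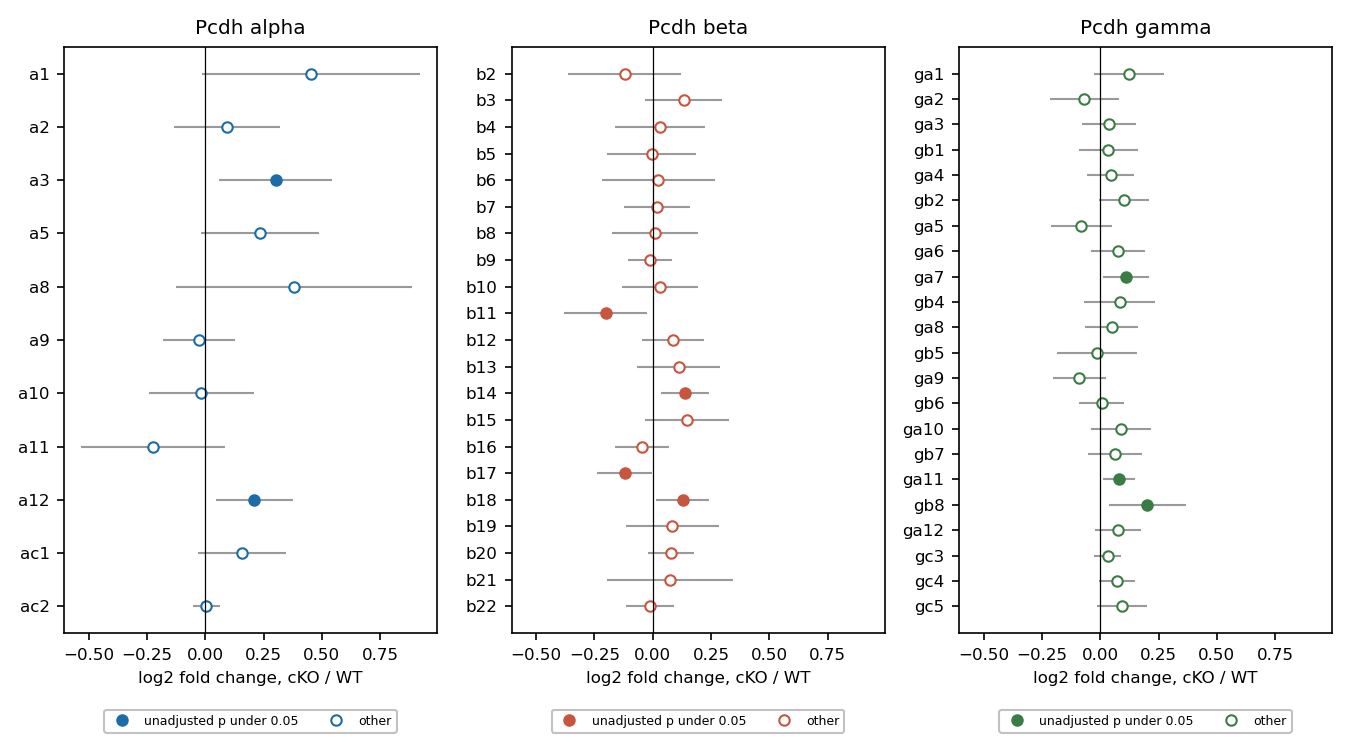
Log2 fold change of each of the 54 tested members, cKO against WT, with its 95% interval, in chromosomal order; filled points have an unadjusted p under 0.05. Positive values outnumber negative ones by 40 to 14, intervals are widest for Pcdha1 and Pcdha8, and none of the genes passed the adjusted threshold.

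The members with the smallest p came from all 3 clusters. Pcdhb14 had the smallest: it measured 12.2, 14.0 and 15.3 CPM in WT and 14.6, 15.4 and 15.9 CPM in cKO. The overlap came from WT replicate 3, the only WT library above the lowest cKO library (log2 fold change 0.14, SE 0.05, edgeR adjusted p = 0.173). Among alpha genes Pcdha12, given above, had a log2 fold change of 0.21 (SE 0.08, edgeR adjusted p = 0.213). Pcdha3 measured 1.51, 2.05 and 2.48 CPM in WT and 2.23, 2.50 and 2.97 CPM in cKO (log2 fold change 0.30, SE 0.12, edgeR adjusted p = 0.220). Both alpha genes overlapped between genotypes at the upper end of WT.

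In the gamma cluster Pcdhgb8 measured 2.93, 3.42 and 3.66 CPM in WT and 3.56, 3.79 and 4.24 CPM in cKO. The log2 fold changes of Pcdhgb8, Pcdhga11 and Pcdhga7 were 0.20, 0.08 and 0.11 (edgeR adjusted p = 0.236, 0.260 and 0.296). For Pcdhgb8 only WT replicate 1 reached the cKO range. Pcdhga7 measured 15.3, 16.9 and 18.9 CPM in WT and 17.5, 18.05 and 19.0 CPM in cKO. Its cKO libraries all lay in the upper part of the WT range or just above it.

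The 2 members with an unadjusted p under 0.05 in edgeR and a lower level in cKO were both beta genes. Negative log2 fold changes of any size were found in 3 alpha, 7 beta and 4 gamma genes. Pcdhb11 measured 5.56, 6.81 and 8.33 CPM in WT and 5.64, 5.94 and 7.07 CPM in cKO (log2 fold change −0.20, SE 0.085, edgeR adjusted p = 0.278). Pcdhb17 measured 18.3, 19.1 and 20.0 CPM in WT and 14.4, 17.9 and 19.5 CPM in cKO (log2 fold change −0.12, SE 0.06, edgeR adjusted p = 0.339). The cKO range of Pcdhb11 lay within that of WT, and the log2 fold change of Pcdhb17 was −0.07 without cKO replicate 2. Next to Pcdhb17 on the chromosome, Pcdhb18 pointed the other way, with 11.5, 11.7 and 12.4 CPM in WT and 11.7, 12.8 and 14.4 CPM in cKO (log2 fold change 0.13, SE 0.05, edgeR adjusted p = 0.287). Without WT replicate 3 or WT replicate 4, neither Pcdhb11 nor Pcdhb17 had an unadjusted p under 0.05, and leaving out WT replicate 2 or 5 or cKO replicate 1, 2, 5 or 6 took 1 of the pair above it. Both were above it with a score of forebrain and midbrain markers as a covariate.

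The intervals set limits on differences that could have gone unseen. For 36 of the 54 tested members (3 of 11 alpha, 13 of 21 beta and 20 of 22 gamma) the 95% interval lay within a 1.2-fold change in either direction, and for 52 within 1.5-fold. The exceptions at 1.5-fold were Pcdha1 (log2 fold change 0.45, interval −0.01 to 0.92) and Pcdha8 (0.38, interval −0.13 to 0.88). For Pcdhgc3 the log2 fold change was 0.03 with an interval of −0.03 to 0.09. The other C-type genes Pcdhac1, Pcdhgc4 and Pcdhgc5 had log2 fold changes of 0.16, 0.07 and 0.09, with edgeR adjusted p = 0.450, 0.386 and 0.439.

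Small positive differences were more common than negative ones. Of the tested members 8 of 11 alpha, 14 of 21 beta and 18 of 22 gamma genes had a positive log2 fold change, and the cluster medians were 0.16, 0.03 and 0.07. Over all 54 the median was 0.07, beside −0.00027 over all tested genes, of which 49.8% were positive. The median of members was 0.04 with the score of forebrain and midbrain markers as a covariate and 0.02 with 2 surrogate variables.

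Summed by cluster, cKO libraries were on average slightly higher. The alpha sum was 65.2 ± 1.51 CPM in WT and 67.5 ± 1.38 CPM in cKO (SD, n = 6 each), with 4 of 6 cKO libraries above every WT library. The beta sum was 165 ± 3.40 and 168 ± 4.68 CPM, with 1 cKO library above every WT library. The gamma sum was 432 ± 4.71 and 445 ± 12.8 CPM, with 3 of 6 above. Each of the 3 sums thus overlapped between the genotypes.

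Whether the sum over all 56 members, looked at after these values were seen, overlapped between the genotypes depended on the scaling. After TMM scaling it measured 657, 660 and 668 CPM (lowest, median and highest library) in WT and 673, 676 and 698 CPM in cKO, a 1.03-fold ratio of the means, with no overlap. Scaled to total counts alone, the members made up 0.0657 to 0.0672% of the counts in WT and 0.0669 to 0.0701% in cKO, and cKO replicate 4 lay below the upper WT libraries. Without Pcdhgc3 the ranges after TMM scaling were 501 to 517 and 517 to 538 CPM, nearly touching, with a ratio of 1.03, and they overlapped under upper quartile scaling or DESeq2 size factors, where 5 of 6 cKO libraries lay above every WT library. A sum over members chosen together was given no test. Single genes of several marker lists were called between the genotypes, in both directions, and their part in the sum was not tested. The mean log2 CPM of 12 forebrain and midbrain markers ran from −0.01 to 0.35 in WT and from 0.14 to 0.70 in cKO. Their summed level was 152 to 166 CPM in WT and 147 to 163 CPM in cKO. The highest score, 0.70, belonged to cKO replicate 1, whose protocadherin sum was 677 CPM. The highest sum, 698 CPM, was that of cKO replicate 2, with a score of 0.34. Among cKO libraries the lowest score, 0.14, and the lowest sum, 673 CPM, both belonged to replicate 4. Among WT libraries replicate 2 had the lowest score, −0.01, and the highest sum, 668 CPM. Whether score and sum go together was not tested.

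**Figure D3:**
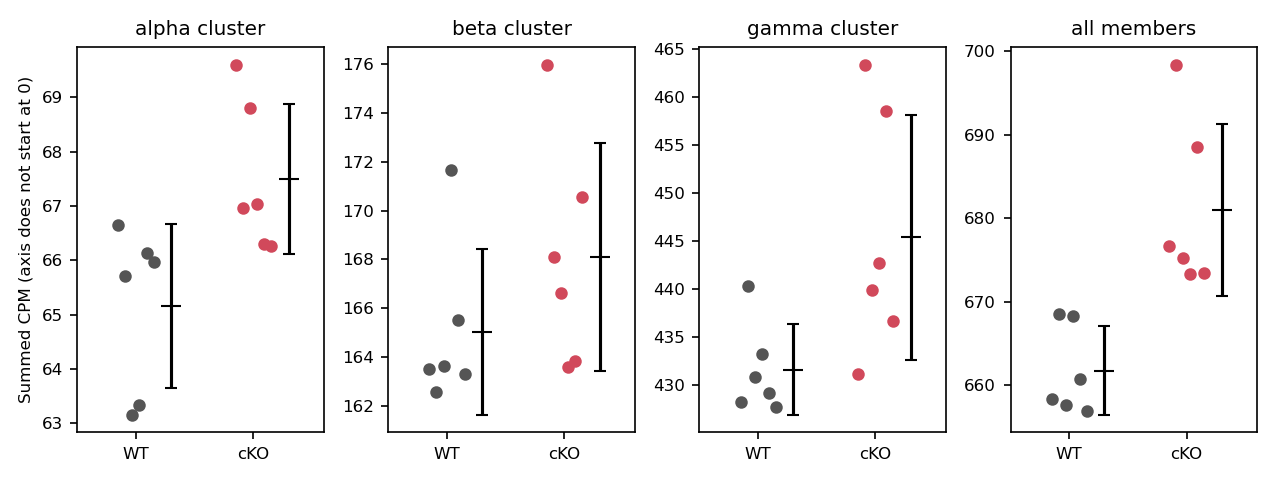
Summed CPM of the alpha, beta, gamma and all 56 genes in each library (points; axes do not start at 0), with the mean and SD of 6 libraries beside them. Ranges overlap within each cluster, and the TMM-scaled sums over all members run from 657 to 668 CPM in WT and from 673 to 698 CPM in cKO.

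By library, the 3 clusters deviated little as a whole. The median deviation of the 54 tested members from their own means was −0.06 (log2) in WT replicate 3, the lowest, and 0.10 in cKO replicate 2, the highest. In WT replicate 3, 14 members lay above their mean, and in cKO replicate 2, 39 did. Large deviations of single members were found among the rare alpha genes, such as Pcdha1, Pcdha8 and Pcdha11.

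**Figure D4:**
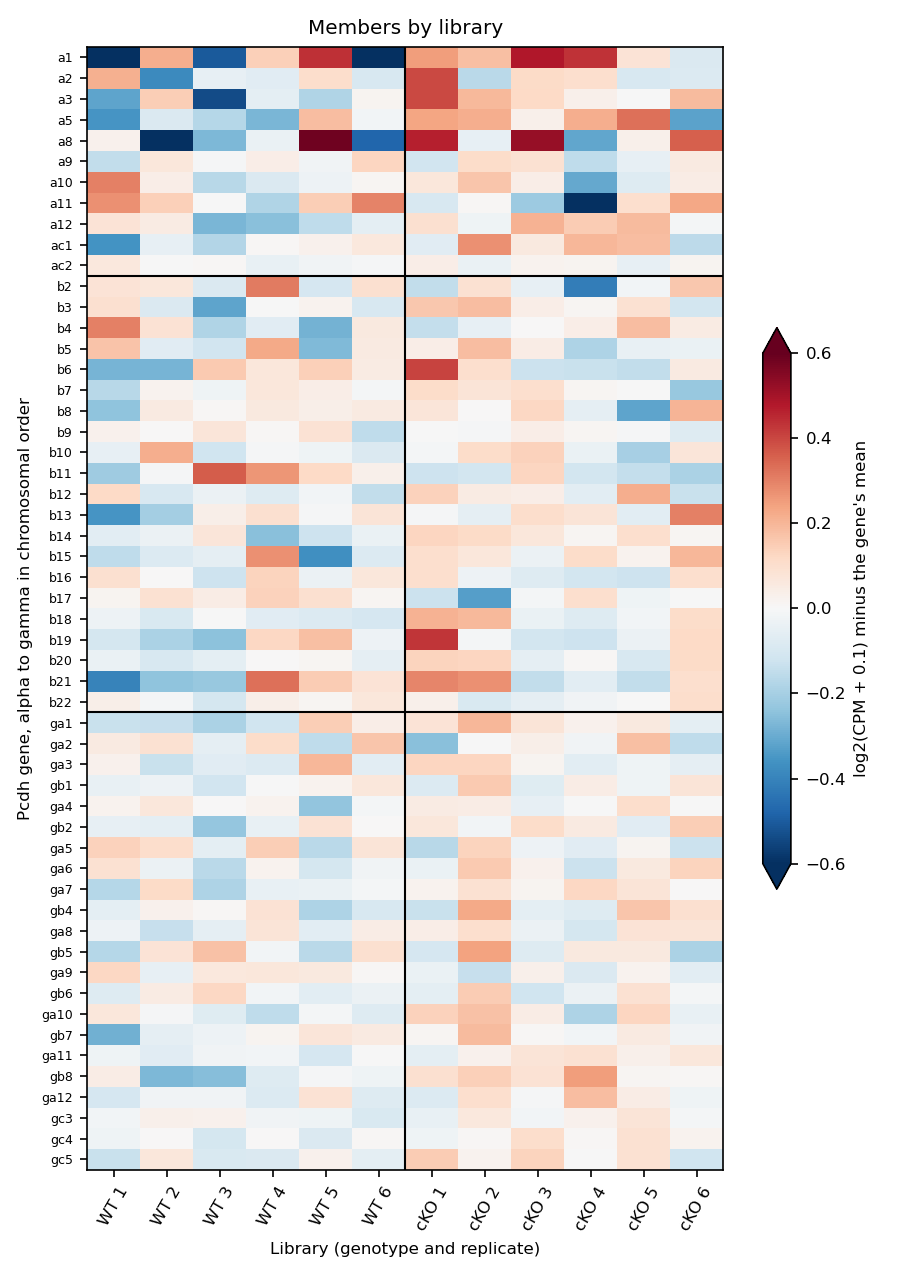
Deviation of each tested member from its own mean on the log2(CPM + 0.1) scale, by library (columns, WT then cKO) and gene (rows, alpha to gamma in chromosomal order). The strongest colours fall in Pcdha1, Pcdha8 and, in cKO replicate 4, Pcdha11, whereas Pcdhac2 and Pcdhgc3 are nearly even across the 12 libraries.

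By edgeR's estimate, the clustered protocadherins varied between cerebella about as much as other genes of their level. That estimate draws each gene towards the trend of genes of like level. The comparison below is thereby pulled towards likeness and cannot show by itself that the spread is alike. The biological coefficient of variation (BCV), edgeR's estimate of relative spread beyond counting noise, had a median of 0.1002 over tested alpha genes, 0.0727 over beta genes and 0.0552 over gamma genes. Genes of like level (within 0.25 log2 CPM of each member) had medians of 0.0937, 0.0715 and 0.0510. Member by member, the ratio to genes of like level had a median of 1.05, and 33 of 54 members lay above 1. The lowest BCV was that of Pcdhac2, 0.028 beside 0.037 for its like, and Pcdhgc3 had 0.034 beside 0.034. The least variable for its level was Pcdhga9, with 0.047 beside 0.068. The most variable for its level was Pcdhb19, with 0.103 beside 0.0660. Pcdha8 and Pcdha1 followed, at 0.197 beside 0.134 and 0.193 beside 0.131.

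**Figure D5:**
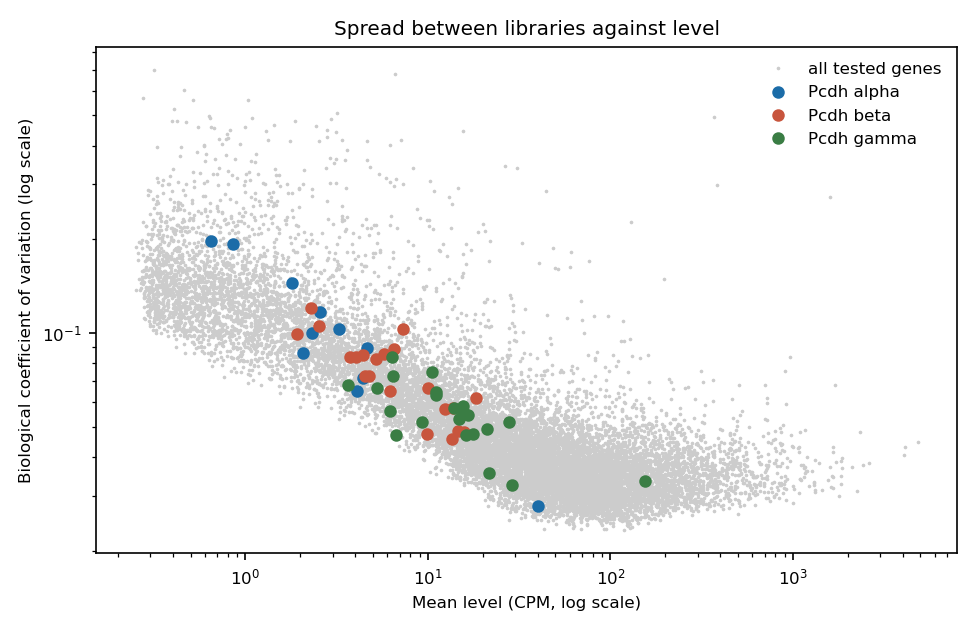
BCV of each gene against its mean level (both axes log), for all 15467 tested genes (grey) and the tested alpha, beta and gamma members (coloured). The members lie within the grey cloud, falling from about 0.20 for Pcdha8 to 0.028 for Pcdhac2.

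Among genes linked to promoter choice at the clusters, 2 were called and the other tested ones were not. Those not called included Dnmt3b (log2 fold change 0.04, edgeR adjusted p = 0.872) and Ctcf (−0.01, edgeR adjusted p = 0.915). Of all tested genes 2.64% were called. Of 23 tested regulators (CTCF, cohesin and its loaders, DNA and histone methyltransferases and related factors), 2 were higher and 0 lower, with a median log2 fold change of −0.01. Dnmt3a, a DNA methyltransferase that sets new methyl marks, measured 187, 191 and 200 CPM in WT and 209, 212 and 221 CPM in cKO. All cKO libraries lay above all WT libraries (log2 fold change 0.15, SE 0.02, edgeR adjusted p = 0.000795). Dnmt1, the methyltransferase that copies marks at replication, measured 98.7, 102 and 107 CPM in WT and 105, 111 and 115 CPM in cKO, with overlapping groups (log2 fold change 0.11, SE 0.03, edgeR adjusted p = 0.0337). Leaving out any of WT replicates 1, 2, 4 and 6 and cKO replicates 2, 3, 4 and 5 ended the call of Dnmt1 (adjusted p between 0.0522 and 0.0939), as did fits with the forebrain and midbrain score (0.131) and with surrogate variables (0.344), whereas Dnmt3a was called under every alternative run. No methylation was measured here.

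Protocadherins outside the clusters, which are not subject to promoter choice, gave 1 call among 12 tested, beside 2.64% of all tested genes. Their median log2 fold change was 0.06. Pcdh8, an activity-induced protocadherin, rose 1.43-fold, from 1.77, 2.45 and 2.79 CPM in WT to 2.58, 3.42 and 4.08 CPM in cKO (log2 fold change 0.52, SE 0.13, edgeR adjusted p = 0.0318). The groups overlapped in part. With the forebrain and midbrain score as a covariate its log2 fold change was 0.39 (adjusted p = 0.342) and with surrogate variables 0.26 (adjusted p = 0.629). Leaving out any of WT replicates 1, 3 and 6 and cKO replicates 1, 2 and 3 also ended the call, with adjusted p between 0.0603 and 0.0987.

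Binding and signalling partners of the clustered protocadherins were not called. Of 26 tested, among them the kinases Ptk2 and Ptk2b, the actin regulators of the WAVE complex and the protease Adam10, 0 passed with edgeR in either direction, and the median log2 fold change was −0.00085. Of 21 tested genes that flank or lie between the clusters, 0 passed, and their median was 0.01. At an unadjusted p under 0.05 in edgeR, the partners had 2 higher and 1 lower and the flanking genes 4 higher and 1 lower. All tested genes gave 7.16% higher and 7.08% lower by that rule. DESeq2 called 1 partner, the receptor kinase Ret, and 0 flanking genes.

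Among marker lists of cerebellar cell types, calls fell in 4 cell types, beside 2.64% called among all tested genes. Granule cell markers had 1 higher (Etv1) and 3 lower (Gabra6, Zic1, Reln) of 8 tested. Unipolar brush cell markers had 1 higher (Calb2) and 1 lower (Eomes) of 3. Lmx1a was not called (log2 fold change −0.46, edgeR adjusted p = 0.176). Calb2 had a mean of 435 CPM over all libraries, beside 16.8 CPM for Eomes and 1.23 CPM for Lmx1a. Whether Calb2 counts came from unipolar brush cells was not tested. Interneuron markers had 1 lower (Lgi2) of 8, and microglia markers 2 higher (Cx3cr1, Csf1r) of 7. By unadjusted p under 0.05 in edgeR, these 4 lists had 1, 1, 0 and 4 genes higher and 4, 2, 4 and 0 lower, in that order. Their log2 fold changes were positive in 3 of 8, 1 of 3, 1 of 8 and 7 of 7. Purkinje cell, astrocyte, oligodendrocyte and vascular markers had 0 called of 8, 8, 9 and 7. At an unadjusted p under 0.05 in edgeR these lists had 0, 2, 1 and 0 genes higher and 1, 1, 0 and 0 lower, and DESeq2 called 0. All tested genes gave 7.16% higher and 7.08% lower by the unadjusted rule. Choroid plexus and meningeal markers had 0 called of 11 with either tool and 0 at an unadjusted p under 0.05, and their sum varied widely, from 319 to 758 CPM in WT and from 246 to 1133 CPM in cKO. The part of these shifts in the protocadherin levels was not tested.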

How the data were processed

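Messenger RNA of 12 mouse cerebella was sequenced, 6 WT and 6 cKO. The deposited table gives raw counts per gene for 18394 genes. Per the submitters' processing notes STAR and DESeq2 were used, whereas the counter, the gene models and the strandedness used were not given in the sources used here. The authors' deposited table of their DESeq2 comparison gives a log2 fold change and a p-value per gene. That deposited table also holds a mean signal (headed baseMean) and a test score (stat) from the authors' run, neither of which was used. It served only for comparison. From the counts, edgeR 4.0.16 (R 4.3.3) was run with filterByExpr by genotype, TMM scaling and the quasi-likelihood test, with Benjamini-Hochberg adjustment over all 15467 genes kept. Total counts ran from 23803779 to 62104185 per library, so that 1 count was worth 0.0161 to 0.0421 CPM. Of the 56 members 55 were matched to GENCODE M21 (mm10), Pcdha10 through its RefSeq start because that annotation gives its gene another member's name.

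Members and gene lists were chosen with earlier results of these data known. Genes named were the C-type members, members with an unadjusted p under 0.05, the 3 highest and 3 lowest tested members of each cluster by CPM, the extremes per kb, members removed by the filter, and list genes that passed. Alternatives were DESeq2 1.42.0, 2 other scalings, no filter, thinning to the smallest library, a tissue score covariate, 2 surrogate variables (sva 3.50.0) and leaving out each library. The edgeR script was tested on simulated data. The p-values set the difference between the genotypes against the spread between these animals. The result of 1 gene of the forebrain and midbrain list is not reported here.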

Additional observations from a re-analysis of the deposited data

Results flagged for a closer look

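In 7 of 114 groups of 6 values looked at (members and sums, by genotype), 1 library lay farther from its nearest neighbour than Dixon's 95% critical value allows. Chance flags about 1 in 20 groups, and each of the 7 falls in a different library. Pcdhb7 was lowest in cKO replicate 6, at 5.23 CPM against 6.13 to 6.65 CPM in the other cKO libraries. Pcdhb8 was lowest in WT replicate 1, at 3.62 CPM against 4.32 to 4.48 CPM. Pcdhb10 was highest in WT replicate 2, at 5.23 CPM against 4.13 to 4.48 CPM. Pcdhb11 was highest in cKO replicate 3, at 7.07 CPM against 5.64 to 5.97 CPM. Pcdhga4, the member whose reads are hardest to assign, was lowest in WT replicate 5, at 13.7 CPM against 16.0 to 16.9 CPM. Pcdhgb7 was highest in cKO replicate 2, at 17.6 CPM against 15.2 to 16.1 CPM. The beta sum was highest in WT replicate 4, at 172 CPM against 163 to 166 CPM in the other WT libraries. The part of any technical difference in these values was not tested.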

How the results depend on the processing

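No member was called under any alternative run, with edgeR or DESeq2. Members with an unadjusted p under 0.05 numbered 7 higher and 2 lower as reported. They numbered 0 lower with the tissue score, and 3 higher and 1 lower with surrogate variables. Leaving out 1 library gave 4 higher (without WT replicate 3) to 11 higher (without WT replicate 5 or cKO replicate 6) and 0 to 2 lower.

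As medians over tested members in place of sums, the log2 ratios were 0.21 for alpha, −0.021 for beta, 0.11 for gamma and −0.0047 for all members. The alpha sum without Pcdhac2 gave 0.12. The gamma to beta, beta to alpha and gamma to alpha log2 ratios of median levels were 0.995, 1.66 and 2.66 per kb of all exon sequence and 1.21, 1.31 and 2.52 with no length scaling. The sum over all members did not overlap between genotypes after TMM scaling, with DESeq2 size factors, with upper quartile scaling or thinned, and overlapped when scaled to total counts alone, with 5 of 6 cKO libraries above every WT library. That sum and its settings were added after seeing the data.

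Some log2 fold changes changed sign: thinned, Pcdhac2 (−0.00026) and Pcdhgb6 (−0.035); with the tissue score, Pcdhb21 (−0.054) and Pcdhb6 (−0.18); with surrogate variables, Pcdhb21 (−0.091), Pcdhb6 (−0.13), Pcdhga1 (−0.0022, from 0.12) and Pcdhgc5 (−0.0041, from 0.09). Over libraries left out, Pcdhb6 ran from −0.053 to 0.062, Pcdhgb6 from −0.024 to 0.034, Pcdhb9 from −0.047 to 0.0062 and Pcdhac2 from −0.0039 to 0.015. The cause was not tested. Over all tested genes the 409 calls became 565 in DESeq2, 199 under the tissue score and 126 under surrogate variables. No paired analysis was possible because the labels give the genotypes no shared replicate numbers. Depth limits the rare alpha genes, with as few as 8 counts in a library.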
